A study of Mus musculus with 18 samples.

Results

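The genes described here were higher in old mesenchymal stem cells (MSCs) after co-culture with young MSCs, although they were lower in young than in old MSCs, so that the co-cultured cells lay farther from the young level than the untreated old cells did. They were chosen from the normalized counts of 18 RNA-seq libraries by 3 limits. The mean over the 18 libraries was at least 50 normalized counts, the log2 of the group mean plus 1 was at least 0.6 higher in rejuvenated old than in old MSCs, and it was at least 0.3 lower in young than in old MSCs. The limits were met by 107 of the 12203 genes with such a mean, out of 27179 genes listed. Both differences were used to choose the genes, and both use the same 6 old libraries, so the differences are given as a description with no test.

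The libraries came from primary bone marrow MSCs of C57BL6 mice, which the study describes as male. Young MSCs were from mice of 6 weeks and old MSCs from mice of 18 to 24 months, with 6 libraries in each group and no treatment. Rejuvenated old MSCs, the remaining group, held 6 libraries of old MSCs grown for 7 days beside young MSCs in wells divided by a membrane with pores of 0.4 µm, which lets secreted factors through and holds the cells back. All groups were grown in alpha-MEM with fetal bovine serum, and 100000 old cells were plated per culture. A library of old MSCs grown beside other old MSCs was not analysed here, so the presence of a partner culture and the age of the partner cannot be told apart. The labels call the libraries of a group biological replicates but do not tie them to single animals, and where cultures shared an animal the spread between libraries is partly technical.

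MSCs of the bone marrow are stromal cells that can form bone, cartilage and fat and that support blood formation through secreted factors. Among these factors are antagonists of Wnt signalling, bone morphogenetic proteins (BMPs), chemokines, and the ligand RANKL with its decoy receptor osteoprotegerin, which set how many osteoclasts resorb bone. Cells in culture also secrete the proteases and inhibitors that remodel their matrix, and angiogenic peptides such as adrenomedullin that are known to be induced in low oxygen.

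Depth ran from 22936251 to 29559194 assigned reads per library, so the deepest library held 1.29 times the reads of the shallowest. The 14 MSC markers, among them Cd44, Pdgfrb and Cxcl12, had a summed level of 362981 to 389057 normalized counts in young, 493932 to 520988 in old and 484996 to 519826 in rejuvenated old MSCs. By limma 9 of them were called lower and 5 higher in young than in old MSCs. Cxcl12, Col1a1 and Col1a2 made up most of the sum, with means of 197374, 109095 and 104079 in old MSCs. In young MSCs these means were 9227, 99171 and 171857, so the sum does not stand for every marker. Thy1, one of the 14, had 175 to 227 in young MSCs and 0 to 3.23 in old MSCs. Rejuvenated old replicate 1 stood apart with 21.6 of Thy1, where the other 5 had at most 0.951, and with 402 of Cd34, a gene at 6787 to 7191 in young MSCs and at 24.2 to 41.9 in the other 5. Without that library 110 genes met the limits, 106 of them among the 107. Macrophage markers summed to 929 to 1049 in young MSCs, against 14965 to 18699 in old and 15005 to 18296 in rejuvenated old MSCs, so that the old and rejuvenated old ranges overlapped. The Y-linked genes Ddx3y, Kdm5d, Eif2s3y and Uty reached at most 2.06 normalized counts in any young library, while no old or rejuvenated old library had under 493, and Xist reached at most 41.2 in any library. Whole chromosomes also differed between young and old MSCs: the median young-minus-old difference on chromosomes 1, 12 and 16 was -0.67, -0.42 and -0.67 relative to that of the autosomes on the log2 scale, and on chromosome 7 it was 0.64. Donor, age and these differences cannot be told apart in the comparison with young MSCs. In bulk RNA, fewer cells of a type and less RNA per cell cannot be told apart either.

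Of the 365 genes at least 0.6 higher in rejuvenated old than in old MSCs, 107 (29.3%) were the genes described here, 220 (60.3%) were at least 0.3 higher in young than in old MSCs, and 38 lay between. Among all 12203 genes 35.8% were at least 0.3 lower in young MSCs. The rejuvenated-minus-old difference ranged from 0.60 to 2.20 over the 107 genes with a median of 0.80, and was at least 1 for 35 of them. The difference between young and old MSCs ranged from -12.15 to -0.31 with a median of -2.08, and 57 genes lay below -2. A further 66 genes met both differences with a mean between 10 and 50 and were left out by the limit on the mean.

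**Figure D1:**
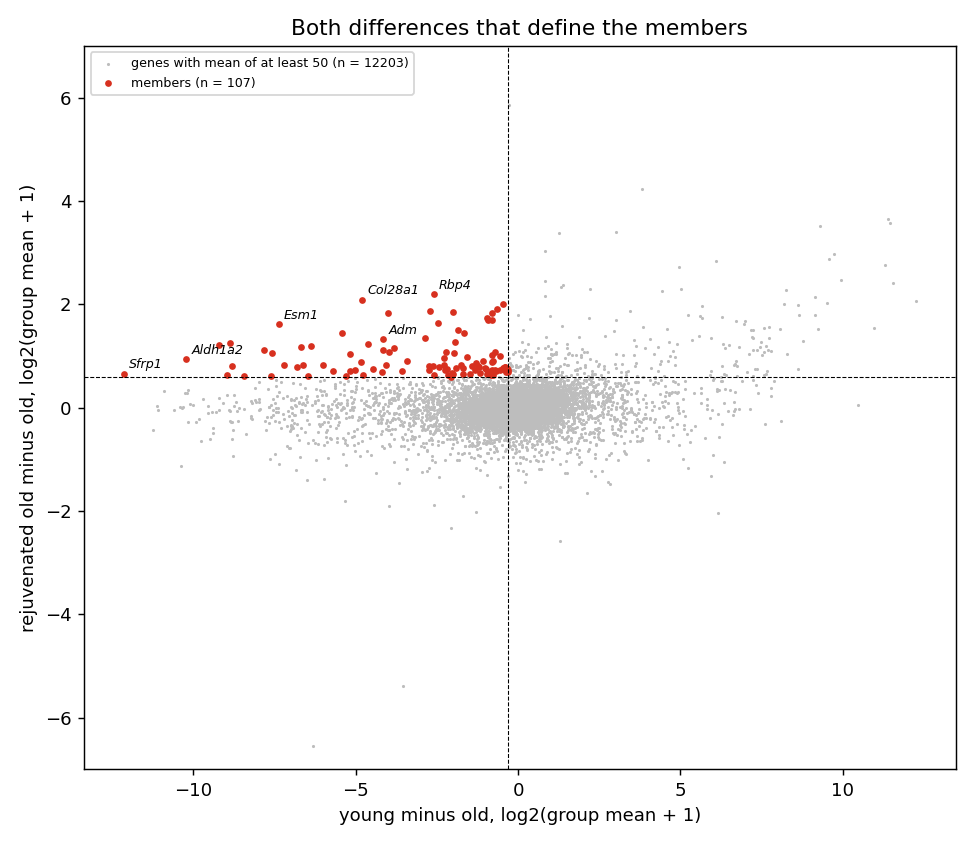
Young minus old (x axis) against rejuvenated old minus old (y axis), both as log2(group mean + 1), for all 12203 genes that passed the limit on the mean. The 107 genes described here (red) lie above 0.6 and left of -0.3 (dashed lines), and reach from Sfrp1 at -12.15 to genes just inside the limit at -0.31.

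For 100 of the 107 genes every one of the 6 rejuvenated old libraries exceeded every old library, as was the case for 11.5% of all 12203 genes. All young libraries lay below all old libraries for 97, against a background of 39.3%, and both held for 91, against 4%. By limma on log2(normalized count + 1), with a Benjamini-Hochberg adjusted p under 0.05 over 14353 genes, 103 were called higher in rejuvenated old MSCs, against 21% of genes tested, and 106 lower in young MSCs, against 44.1%. These counts follow from the way the genes were chosen. At the limits themselves, Sp140 and Kng2 lay just inside with differences of 0.6004 and 0.602 between rejuvenated old and old MSCs, and Rac3 and Prdx5 just outside with 0.599 and 0.586. Pdlim2 and Rgs11 lay just inside the limit on young MSCs with -0.31 each, and Pamr1 and Maff just outside with -0.28 and -0.26. With predicted genes passed over (Gm16201, at 50.7, had the lowest mean of all members), Slc17a9 and Ccl12 lay nearest inside the limit on the mean with 55.3 and 55.8, while Cox7a1 and Slc35d3 were left out with means of 47.7 and 46.4.

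The 12 genes for which the smaller of both differences was largest were Rbp4, Col28a1, Ptx3, Bmp4, Adrb3, Prss35, Esm1, Adamts5, Tnfsf11, Gzmd, Serpinb6b and Adm. On GRCm38.p6, by RefSeq, Rbp4 lies on chromosome 19 (38116620.0 to 38125321.0), Col28a1 on 6 (7997100.0 to 8193709.0), Ptx3 on 3 (66219887.0 to 66225806.0), Bmp4 on 14 (46383525.0 to 46390669.0), Adrb3 on 8 (27225776.0 to 27230845.0), Prss35 on 9 (86743240.0 to 86758443.0), Esm1 on 13 (113209659.0 to 113218104.0), Adamts5 on 16 (85858157.0 to 85901125.0), Tnfsf11 on 14 (78277446.0 to 78308043.0), Gzmd on 14 (56129556.0 to 56132603.0), Serpinb6b on 13 (32956811.0 to 32979067.0) and Adm on 7 (110627657.0 to 110629820.0). In none of them did the ranges of any pair of groups overlap. Young below old below rejuvenated old in every library held for 4% of all 12203 genes. Such separation, here and in members below, follows from the way the genes were chosen. Levels below are normalized counts, given as the lowest, median and highest of the 6 libraries of a group, with rejuvenated old MSCs written as after co-culture, and differences are on the log2(group mean + 1) scale unless a fold is named.

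**Figure D2:**
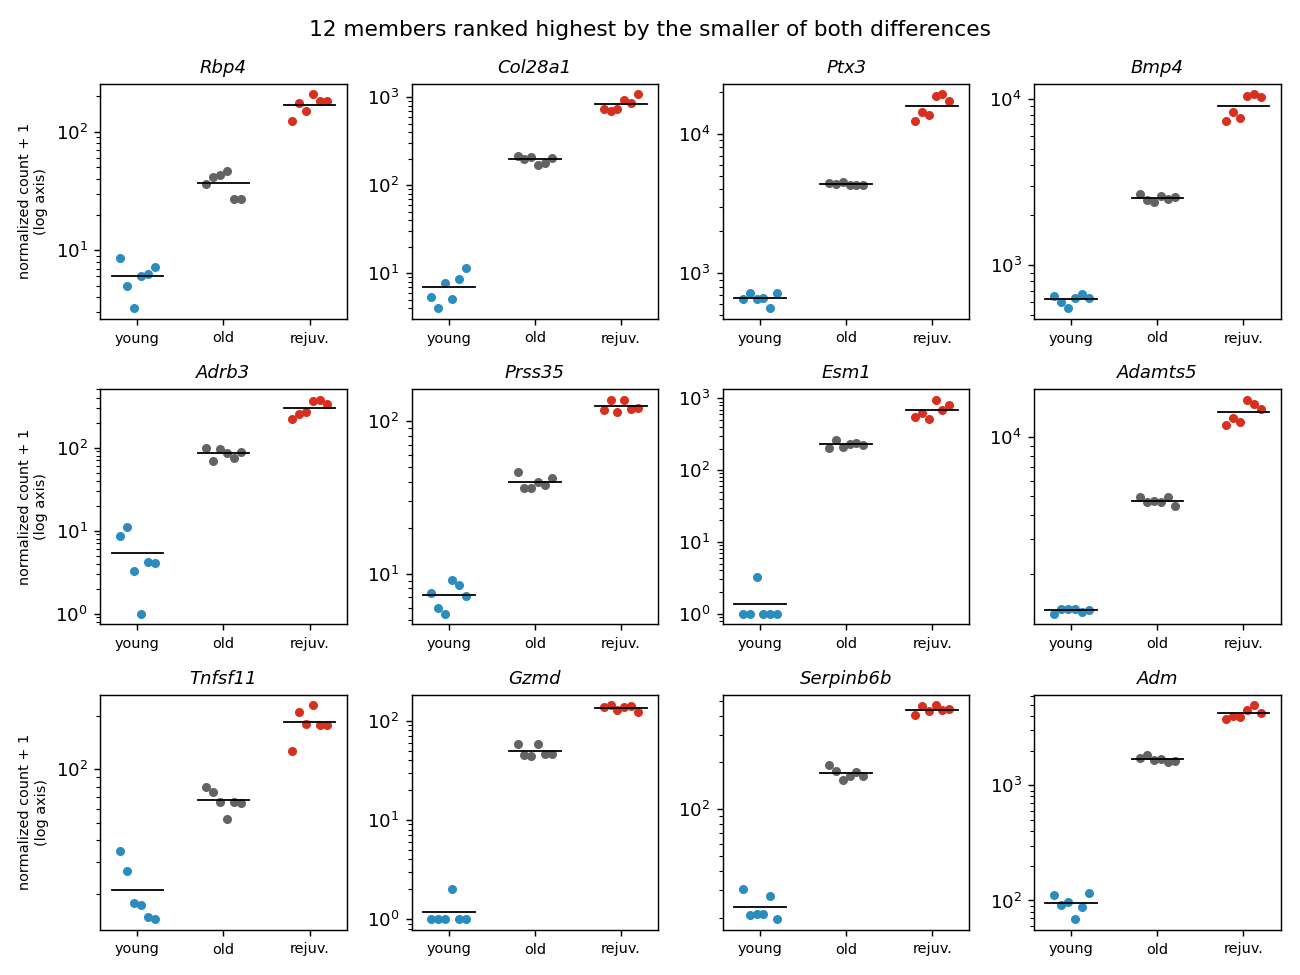
Normalized count plus 1 (log axis) of the 12 genes in each library, with 6 points per group and the group mean as a line. Young libraries (blue) lie lowest, old libraries (grey) between, and rejuvenated old libraries (red) highest in every panel.

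Rbp4, the plasma carrier of retinol, showed the largest difference between rejuvenated old and old MSCs. It had 2.23, 5.20 and 7.62 in young MSCs, 25.97, 37.9 and 45.4 in old MSCs and 122, 176 and 207 after co-culture, a mean 4.69 times that of old MSCs. The 3 groups were fully separated. Aldh1a2, the enzyme that makes retinoic acid, had 1.07, 3.13 and 7.82 in young MSCs, 5904, 6044 and 6441 in old MSCs and 11075, 11663 and 12374 after co-culture. Cyp26b1, which degrades retinoic acid, had 109, 119.999 and 149 in young MSCs, 212, 231 and 268 in old MSCs and 349.6, 367 and 400.2 after co-culture. Together the retinoid genes thus held a carrier, a synthetic and a degrading enzyme, with differences of 2.20, 0.93 and 0.65. Of other retinoid genes, looked up after these values were seen, the receptor Rarb had a difference of -0.48 between rejuvenated old and old MSCs, and the retinaldehyde reductase Dhrs3 had one of 0.38.

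Bmp4, a BMP that drives bone and cartilage formation, had 551, 634 and 675 in young MSCs, 2402, 2523 and 2689 in old MSCs and 7356, 9256 and 10612 after co-culture. Its mean in rejuvenated old MSCs was 3.59 times that in old MSCs, which was in turn 4.05 times that in young MSCs. Bmp6, a ligand of the same family, had 30.2, 52.4 and 64.7 in young MSCs, 86.3, 96.5 and 102 in old MSCs and 249, 298 and 391 after co-culture, and the groups again did not overlap. Of the 42 genes tested from a list of TGF-beta and BMP ligands, receptors, antagonists and targets, 13 were called higher and 14 lower in rejuvenated old MSCs, with a median difference of -0.09 beside 0.01 over all genes tested. The direct BMP targets Id1 and Id2 were not called, with differences of -0.02 (SE 0.06) and 0.08 (SE 0.05), and Id3 was called lower at -0.16 (SE 0.06).

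Promoters are shown for the 3 of the 12 genes whose windows held the most hypoxia response cores, since several of the genes below are known to respond to low oxygen. Each window runs from 250 bases before a RefSeq start to 50 after it in GRCm38.p6, 5′ to 3′ on the strand of the gene. Capitals mark the cores ACGTG and GCGTG on either strand (CACGT and CACGC when read on the other). The Rbp4 window is chr19:38124762-38125061 on the minus strand, the Bmp4 window chr14:46390620-46390919 on the minus strand, and the Adm window chr7:110627407-110627706 on the plus strand.
Rbp4: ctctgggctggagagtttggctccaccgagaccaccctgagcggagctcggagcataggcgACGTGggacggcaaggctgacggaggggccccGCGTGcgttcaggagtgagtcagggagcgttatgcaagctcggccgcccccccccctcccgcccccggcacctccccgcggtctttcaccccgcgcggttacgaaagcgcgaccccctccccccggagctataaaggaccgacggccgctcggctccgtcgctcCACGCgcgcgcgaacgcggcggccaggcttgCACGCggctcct
Bmp4: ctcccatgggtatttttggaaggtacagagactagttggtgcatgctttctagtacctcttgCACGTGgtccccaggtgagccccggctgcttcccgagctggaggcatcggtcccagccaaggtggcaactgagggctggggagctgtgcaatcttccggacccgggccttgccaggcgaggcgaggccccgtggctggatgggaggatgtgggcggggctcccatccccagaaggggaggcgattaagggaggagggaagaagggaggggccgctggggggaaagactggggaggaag
Adm: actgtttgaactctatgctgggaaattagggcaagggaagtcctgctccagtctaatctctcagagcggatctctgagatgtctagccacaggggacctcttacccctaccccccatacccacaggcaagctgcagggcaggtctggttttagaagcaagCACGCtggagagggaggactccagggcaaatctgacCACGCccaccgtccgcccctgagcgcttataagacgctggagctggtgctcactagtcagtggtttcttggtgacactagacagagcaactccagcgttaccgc
The Rbp4 window shown held 4 cores, at -189, -157, 7 and 38 from its start, and a TATAAA box near that start. A second RefSeq start of Rbp4, farther upstream, has the window chr19:38125272-38125571, which held 0 cores. The 2 cores of Bmp4 overlap in a single palindrome CACGTG at -188, which is also an E-box, and those of Adm lay at -90 and -54. Such a match is a description of the letters and not a site of binding.

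Adm, which encodes the vasodilator peptide adrenomedullin, had 67.8, 93.4 and 115 in young MSCs, 1605, 1679 and 1833 in old MSCs and 3767, 4134 and 4949.8 after co-culture. The level in rejuvenated old MSCs was 2.50 times that in old and 44.7 times that in young MSCs, with no overlap between groups. Calcrl, a subunit of the receptors for this peptide, went the other way between the old groups. It had 7.46 to 20.2 normalized counts in young, 457 to 615 in old and 251 to 348 in rejuvenated old MSCs. Calcrl was chosen after its values were seen. Stc1, a glycoprotein hormone of calcium and phosphate balance, had 156, 174 and 214 in young MSCs, 662, 703 and 735 in old MSCs and 1439.5, 1681 and 1903 after co-culture. Its order of groups was that of Adm, which the limits fix for the group means of every gene described here. Angpt2, the antagonist of angiopoietin 1 at the receptor Tie2, had 12.8, 21.1 and 27.9 in young MSCs, 771, 799 and 854 in old MSCs and 1207, 1674 and 2038 after co-culture. Vegfc, a growth factor for lymphatic vessels, had 215, 224 and 246 in young MSCs, 286, 319 and 333 in old MSCs and 438, 531 and 609 after co-culture. Angptl4, an inhibitor of lipoprotein lipase, had 947, 1027 and 1057 in young MSCs, 1613, 1766 and 1820.1 in old MSCs and 2324, 2658 and 3096 after co-culture. Ppp1r3c, which directs a phosphatase to glycogen, had 357, 373 and 432 in young MSCs, 1633, 1691 and 1815 in old MSCs and 2317, 2627 and 2904 after co-culture. For each of these genes every old library lay between the young and the rejuvenated old libraries, most narrowly above young for Vegfc.

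Adm, Stc1, Angptl4 and Ppp1r3c were the 4 members on a list of 48 genes known to rise in low oxygen. Of that list 33 genes were called higher and 7 lower in rejuvenated old MSCs, with a median difference of 0.42, beside 21% and 20.6% of all genes tested. Without the 4 members, whose directions the limits fix, 29 of 44 were called higher and 7 lower. Against old MSCs, 25 genes of the list were called higher and 19 lower in young MSCs, beside 41.6% and 44.1% of all genes tested, with a median of 0.36. With the members left out, these counts were 25 and 15. Most of the list thus rose with co-culture, and it was the direction in young MSCs that divided it. Egln3 of this list, a prolyl hydroxylase that marks HIF for degradation, rose by 2.37 (SE 0.11) in rejuvenated old MSCs. It was also higher in young than in old MSCs, by 1.38 (SE 0.11). Pdk1, which restrains pyruvate oxidation and is on a separate glycolysis list, rose by 1.13 (SE 0.04) in rejuvenated old MSCs. It was also higher in young than in old MSCs, by 1.00 (SE 0.04). Vegfa, the vascular endothelial growth factor, was higher in rejuvenated old MSCs by 0.73 (SE 0.05) and differed by -0.16 between young and old MSCs, which does not reach the limit of -0.3. None of the 32 tested glycolysis genes was a member, although 21 of them were called higher in rejuvenated old MSCs. Adjusted p-values for these calls are from limma with Benjamini-Hochberg adjustment, and the list was written with earlier results of these data known.

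The Wnt antagonists Sfrp1 and Sfrp2 were among the 6 members with the largest mean normalized count, a measure that is not scaled to gene length. The others were Hp, Thbd, Ifngr1 and Myl9. Sfrp1, a secreted protein that binds Wnt ligands, had 2.18, 4.16 and 46.3 in young MSCs, 55480.3, 56483 and 57134 in old MSCs and 83769.97, 87900.1 and 95079 after co-culture. It was nearly absent from 5 young libraries, which held 2.18 to 7.82, and stood at 46.3 in young replicate 6, and the young-minus-old difference of -12.15, the lowest of any gene, was -13.33 without that library. Sfrp2, its close relative, had 476, 561 and 646 in young MSCs, 15474, 15792 and 17076 in old MSCs and 28106, 29064 and 31256 after co-culture. Wnt4, a ligand known from cartilage and kidney development, had 214, 256 and 304 in young MSCs, 466, 519 and 563 in old MSCs and 648, 834 and 1169 after co-culture. A further antagonist, Sfrp4, had 6279 to 7267 in old and 4691 to 6134 in rejuvenated old MSCs and was looked up after these values were seen. Over the Wnt list 11 of 42 genes tested were called higher and 12 lower in rejuvenated old MSCs, with a median of -0.15. About as many Wnt genes thus fell as rose. Without the 3 members 9 of 39 were called higher and 12 lower. Axin2, a transcriptional target of Wnt signalling, fell by 0.47 (SE 0.15, adjusted p = 0.019 by limma).

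Both secreted arms of the RANK system were members. Tnfsf11, which encodes RANKL, had 13.4, 16.5 and 33.7 in young MSCs, 51.8, 64.4 and 78.5 in old MSCs and 126, 178 and 228 after co-culture. Tnfrsf11b, which encodes the decoy receptor osteoprotegerin, had 52.5, 71.96 and 81.6 in young MSCs, 949, 1125 and 1197 in old MSCs and 2001, 2233 and 2815 after co-culture. Both separated the 3 groups, by 1.45 and 1.07 between rejuvenated old and old MSCs. The signalling receptor, Tnfrsf11a, was low, with at most 42.3 normalized counts in any old library and at most 34.0 in any rejuvenated old library. Pth1r, the parathyroid hormone receptor of osteoblasts, had 10.1, 23.1 and 28.9 in young MSCs, 108, 138 and 155 in old MSCs and 192, 236 and 299.9 after co-culture, and it was the 1 member on the list of 13 osteoblast markers. The summed osteoblast markers moved against it, from 116310 to 125187 normalized counts in old to 67966 to 95843 in rejuvenated old MSCs, with 7 of 12 tested markers called lower and 2 higher by limma.

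The cartilage gene Col2a1, the fibrillar collagen of cartilage, had 6.70, 7.33 and 10.9 in young MSCs, 1548, 1756 and 1857 in old MSCs and 2340.5, 2643 and 2963 after co-culture. Sox9, the transcription factor that switches it on, had 344, 380.5 and 394 in young MSCs, 530.1, 618 and 668 in old MSCs and 921, 1015 and 1063 after co-culture. Both are on the list of 11 chondrocyte markers, whose summed level was 929 to 1004 in young, 2806 to 3161 in old and 3722 to 4395 in rejuvenated old MSCs. Without these 2 members the list summed to 597 to 649.6 in old and 390.2 to 466 in rejuvenated old MSCs. Acan, the large proteoglycan that defines cartilage matrix, was at most 1.08 normalized counts in every library, so the defining marker was at or near 0. The part of such cells in the result was not tested. Other matrix members were Col28a1, a collagen with von Willebrand factor type A domains, with 2.99, 5.53 and 10.3 in young MSCs, 168, 201 and 214 in old MSCs and 697, 796 and 1075 after co-culture. Esm1, an endothelial proteoglycan, had 0, 0 and 2.23 in young MSCs, 200.01, 227 and 259.9 in old MSCs and 523, 659.8 and 955 after co-culture. Esm1 was at or below 3 reads in every young library, and the rejuvenated old level was at least 220.4-fold higher than the young floor. Smoc1, a calcium-binding matrix protein that antagonises BMPs, had 1.01, 3.55 and 7.62 in young MSCs, 2255, 2386 and 2458 in old MSCs and 3160.3, 3686 and 4171 after co-culture. Omd, the keratan sulphate proteoglycan osteomodulin, was present in all groups, with 1291, 1363 and 1496 in young MSCs, 1804, 1856 and 1974 in old MSCs and 2769, 3126 and 3588 after co-culture. Young MSCs thus lacked nearly all Smoc1 signal but held most of the Omd level of old MSCs. Of 31 collagen chains tested, Col28a1 and Col2a1 were the 2 called higher in rejuvenated old MSCs, and 12 were called lower, including the major chain Col1a1, which fell by 0.41 (SE 0.05).

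A group of 11 genes held proteases, protease homologues and serine protease inhibitors. Adamts5, the main aggrecan-degrading enzyme, had 1253, 1313 and 1329 in young MSCs, 4468, 4675 and 4933 in old MSCs and 11503, 13214 and 15509 after co-culture. Its neighbour Adamts1, 55.0 kb away on chromosome 16, had 1832, 1984 and 2173 in young MSCs, 3325, 3519 and 3587 in old MSCs and 5979.8, 7085 and 7995 after co-culture. Mmp13, a collagenase that cleaves cartilage and bone collagen, had 19.6, 29.8 and 39.1 in young MSCs, 5599, 5985 and 6507 in old MSCs and 11779, 12009.8 and 13595 after co-culture. Mmp13 was near 0 in young MSCs, whereas both ADAMTS enzymes were well above it. Prss35, an inactive serine protease homologue, had 4.47, 6.35 and 8.10 in young MSCs, 35.4, 38.1 and 45.2 in old MSCs and 113, 120.4 and 137 after co-culture. Of the matrix protease list, 11 of 35 tested genes were called higher and 14 lower in rejuvenated old MSCs.

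Gzme and Gzmd, granule serine proteases best known from cytotoxic lymphocytes, lie 8.93 kb apart on chromosome 14, and Mcpt8, a protease of basophils, lies 32.1 kb from Gzme. Gzme had 0, 1.08 and 5.06 in young MSCs, 1231, 1333 and 1600.1 in old MSCs and 2906, 3204 and 3716 after co-culture. Gzmd had 0, 0 and 1.01 in young MSCs, 43.1, 45.2 and 57.3 in old MSCs and 121, 137 and 142 after co-culture, and its level in rejuvenated old MSCs was at least 42.4-fold higher than the young floor of 3 reads per library. Mcpt8 had 0, 1.04 and 7.82 in young MSCs, 283, 307 and 338 in old MSCs and 416, 464 and 549.9 after co-culture. Of the other granzymes of the cluster, Gzmc and Gzmb were below the limit on the mean but followed the same order, with 15.1 to 41.4 and 4.31 to 9.68 in old and 59.6 to 85.9 and 14.2 to 29.9 in rejuvenated old MSCs, and both stood at 0 in every young library. Gzmg, Gzmn and Gzmf, which lie between Gzmd and Gzmc, reached at most 3.23 normalized counts in any library. These genes were looked up after the values of the members were seen. Granzymes are near-identical copies, and reads can be split between them, so the level of each is uncertain. Lymphocyte markers, among them Cd3e, summed to at most 10.4 normalized counts in any library.

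Serpinb6b, an intracellular inhibitor of granzyme-type proteases, had 18.5, 20.2 and 29.4 in young MSCs, 154, 168 and 191 in old MSCs and 402, 437 and 465 after co-culture. Serpinb1a, an inhibitor of neutrophil proteases, had 247, 293 and 340.1 in young MSCs, 855, 946 and 1034 in old MSCs and 1457, 1597 and 1797 after co-culture, and lies 103.6 kb from Serpinb6b on chromosome 13. Their relatives Serpinb6a and Serpinb9, looked up afterwards, had differences of -0.02 and 0.19 between rejuvenated old and old MSCs. Adamdec1, a metalloprotease of tissue macrophages and gut stroma, had 0, 0 and 1.07 in young MSCs, 124, 128 and 142 in old MSCs and 170.3, 215 and 282 after co-culture. Pcsk6, a proprotein convertase that activates TGF-beta family ligands, had 1227, 1298 and 1339 in young MSCs, 2496, 2582 and 2639.8 in old MSCs and 4041, 4266 and 4906 after co-culture.

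The plasma-type and innate defence genes were led by Ptx3, a soluble pattern recognition receptor, with 562, 662 and 726 in young MSCs, 4291, 4339 and 4486 in old MSCs and 12478, 15729 and 19235 after co-culture. Hp, which encodes haptoglobin, had 33.7, 53.9 and 58.1 in young MSCs, 21632, 22629.6 and 23804 in old MSCs and 33246, 38732 and 46051 after co-culture, and nearly all of its signal was in the old groups. Kng2, a kininogen, had 4.35, 7.53 and 11.3 in young MSCs, 2907, 3108 and 3326 in old MSCs and 3817, 4695 and 5461 after co-culture, and it shares sequence with Kng1, which was 0.32 higher in rejuvenated old MSCs and so outside the limit. Colec10, a collectin of the lectin complement pathway, had 0, 0 and 2.06 in young MSCs, 299, 344 and 372 in old MSCs and 666, 743 and 799.6 after co-culture. C2, a complement protease, had 14.1, 17.99 and 23.3 in young MSCs, 80.8, 124 and 191 in old MSCs and 211, 227 and 235 after co-culture, and old replicate 2 was the highest old library at 191. Of 21 complement genes tested, 9 were called higher and 3 lower in rejuvenated old MSCs, with a median difference of 0.10.

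Chemokines were represented by 5 genes and 1 scavenger receptor. Cxcl14, a chemokine for monocytes, had 0, 0 and 1.03 in young MSCs, 85.3, 89.98 and 123 in old MSCs and 166, 228 and 278 after co-culture. Cxcl5, a neutrophil attractant, had 59.7, 68.7 and 84.9 in young MSCs, 97.5, 115 and 152 in old MSCs and 161, 190.02 and 253 after co-culture. Its neighbour Pf4, the platelet factor 4 chemokine, had 0 throughout in young MSCs, 95.9, 104 and 108 in old MSCs and 188, 225 and 283 after co-culture. Of these, Cxcl5 alone had a clear level in young MSCs. Ccl6, a chemokine of myeloid cells, had 0, 3.19 and 5.33 in young MSCs, 352, 361 and 395 in old MSCs and 547, 654 and 777 after co-culture. Ccl12, a monocyte chemokine, had 0, 0.498 and 2.06 in young MSCs, 46.2, 69.7 and 80.3 in old MSCs and 93.4, 98.998 and 112 after co-culture. Ackr4, a receptor that removes chemokines, had 50.3, 53.7 and 62.9 in young MSCs, 224, 277 and 308 in old MSCs and 426, 548 and 578 after co-culture. For Pf4, which had no read in any young library, the old level was at least 32.6-fold and the rejuvenated old level at least 73.5-fold above the young floor.

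Pf4, Ccl6, Ccl12 and the sialic acid receptor Siglecg are known from blood cells. Siglecg had 421, 439 and 491 in young MSCs, 665, 737 and 783 in old MSCs and 1458, 1532 and 1717 after co-culture, and was 1.08 higher in rejuvenated old than in old MSCs. Of the macrophage markers, 13 of 13 were called lower in young than in old MSCs, and between rejuvenated old and old MSCs 1 was called higher and 1 lower. Ptprc, the pan-leukocyte CD45, had 162 to 208 normalized counts in old and 122 to 171 in rejuvenated old MSCs and stood at 0 in every young library, and Adgre1, which encodes F4/80, had 243 to 333 and 218 to 325. Itgam, which encodes CD11b, had 231 to 315 in old and 316 to 441 in rejuvenated old MSCs, and Mrc1, the mannose receptor, had 436 to 589 and 492 to 696. The part of such cells in these levels was not tested.

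**Figure D3:**
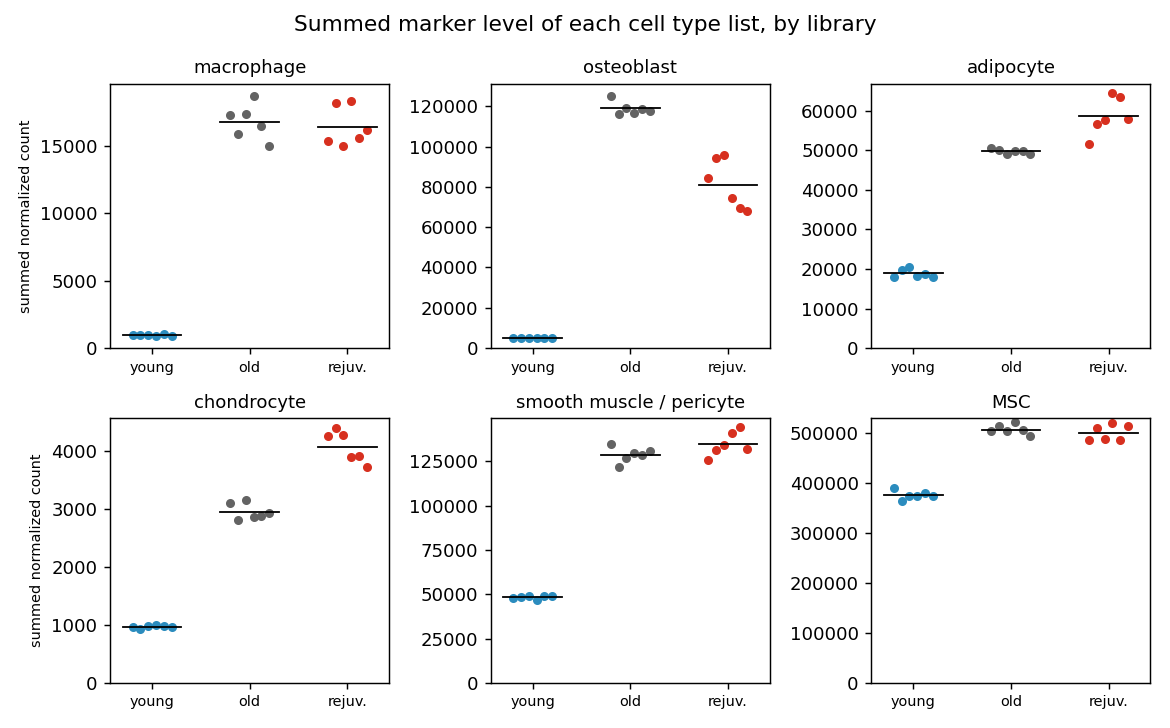
Summed normalized count of 6 marker lists in each library, with 6 points per group and the group mean as a line. Macrophage sums of old and rejuvenated old libraries overlap (14965 to 18699 and 15005 to 18296) and lie far above young (929 to 1049), while osteoblast sums are lower and chondrocyte sums higher in rejuvenated old than in old libraries.

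Psmb8 and Psmb9, the interferon-inducible subunits of the immunoproteasome, lie 10.9 kb apart on chromosome 17. Psmb8 had 311, 382 and 569 in young MSCs, 1011, 1282 and 2131 in old MSCs and 1992, 2479 and 2832 after co-culture. Psmb9 had 155, 211 and 291 in young MSCs, 314, 379.9 and 631 in old MSCs and 517, 669.5 and 764 after co-culture. In both, the old and rejuvenated old ranges overlapped because of old replicate 2, which stood at 2131 for Psmb8 where the other old libraries reached 1362, and at 631 for Psmb9 where the others reached 397. On the list of 38 interferon-stimulated genes, 4 were called higher in rejuvenated old MSCs by limma, and 11 were called higher without old replicate 2. Of the 4, 2 were Psmb8 and Psmb9, which left 2 of 36 other genes. In young MSCs 20 genes of the list were called higher and 6 lower than in old MSCs. The median of 0.65 there was opposite in sign to the differences of Psmb8 and Psmb9. Ifngr1, a subunit of the interferon gamma receptor, had 1935, 2079 and 2171 in young MSCs, 9308, 9436 and 9828 in old MSCs and 13406, 16355 and 17921 after co-culture.

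Cell surface receptors numbered 11. Gpr35, a G protein-coupled receptor, had 79.7, 86.3 and 101 in young MSCs, 122, 143 and 192 in old MSCs and 519, 556 and 593 after co-culture. Adrb3, the beta-3 adrenergic receptor of fat cells, had 0, 3.14 and 9.96 in young MSCs, 67.9, 86.5 and 96.8 in old MSCs and 219, 299 and 374 after co-culture. Ly6c1, a surface antigen of endothelial and myeloid cells, had 635, 766 and 979.9 in young MSCs, 1389.8, 1465 and 1728 in old MSCs and 4645, 5045 and 5349 after co-culture, and its coding sequence is closely related to that of other Ly6 genes, so some reads may be shared. In normalized counts the old mean of these 3 receptors lay nearer to the young than to the rejuvenated old mean. The same held for Avpr1a and Thbd, described next. On the log2 scale Adrb3 differed less between rejuvenated old and old MSCs (1.83) than between young and old MSCs (-3.99). Avpr1a, the vasopressin V1a receptor, had 0, 0 and 2.06 in young MSCs, 727, 805 and 861 in old MSCs and 1646, 1884 and 2011 after co-culture, so that its rejuvenated old level was at least 587-fold above the young floor of 3 reads per library. Thbd, which encodes the anticoagulant thrombomodulin, had 451, 522 and 584 in young MSCs, 8442, 9412 and 9791 in old MSCs and 18249, 19769 and 22642 after co-culture. Adipor2, an adiponectin receptor, had 1753, 1832 and 1977 in young MSCs, 2868, 2937 and 3081 in old MSCs and 4439, 4894 and 5268 after co-culture. Gpr35 and Ly6c1 differed more between rejuvenated old and old MSCs (1.84 and 1.74) than between young and old MSCs (-0.80 and -0.96), whereas Avpr1a and Thbd did the opposite (1.20 and 1.11 against -9.23 and -4.16).

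Among enzymes, Dio3, which inactivates thyroid hormone, had 488, 539.6 and 642 in young MSCs, 803, 850.4 and 953 in old MSCs and 2818, 3257 and 3591 after co-culture, a 3.77-fold difference between rejuvenated old and old MSCs. Dio2, the enzyme that activates thyroid hormone and was looked up afterwards, had 751 to 913 normalized counts in young MSCs, 10.6 to 20.5 in old and 15.4 to 26.1 in rejuvenated old MSCs. Fmo1 and Fmo4, flavin monooxygenases that lie 13.5 kb apart on chromosome 1, were both members. Fmo1 had 14.9, 20.6 and 29.1 in young MSCs, 1279.7, 1435 and 1503 in old MSCs and 2151, 2531 and 2764 after co-culture. Fmo4 had 0, 0 and 2.13 in young MSCs, 62.4, 77.3 and 98.3 in old MSCs and 116, 128 and 149.9 after co-culture. Fmo2, looked up afterwards, had a difference of 0.12 between rejuvenated old and old MSCs. Pygl, a glycogen phosphorylase, had 57.7, 67.1 and 82.7 in young MSCs, 2181, 2262 and 2349.6 in old MSCs and 3386, 3762 and 4037 after co-culture. Fabp5, a fatty acid binding protein, had 97.8, 129 and 143 in young MSCs, 274, 315 and 349 in old MSCs and 479, 548 and 660.3 after co-culture. Of the 29 fatty acid genes tested, Fabp5 and Angptl4 were 2 of 4 called higher, and 17 were called lower.

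Transcription factors were few among the members. Fosl1, an AP-1 subunit, had 119, 126 and 136 in young MSCs, 311, 341 and 368 in old MSCs and 534, 573 and 704 after co-culture. Klf15, a glucocorticoid-induced factor, had 19.2, 31.8 and 41.3 in young MSCs, 167, 195 and 231 in old MSCs and 271, 303 and 343 after co-culture. On the list of 31 immediate early genes tested, 15 were called higher and 8 lower in rejuvenated old MSCs, and 3 of 14 glucocorticoid targets were called higher and 5 lower. Myl9, the myosin regulatory light chain of smooth muscle, had 7189, 7693 and 7868 in young MSCs, 15769, 17208 and 18002 in old MSCs and 22906, 26693 and 32055 after co-culture. Of 20 contractile genes tested, 7 were called higher and 5 lower. Cldn1, a tight junction claudin, had 8.96, 11.4 and 24.7 in young MSCs, 338, 379 and 393 in old MSCs and 746, 902 and 965 after co-culture. Growth factors gave 18 of 38 called higher and 7 lower, inflammatory genes 14 of 35 and 6, and non-collagen matrix proteins 18 of 63 and 21.

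**Figure D4:**
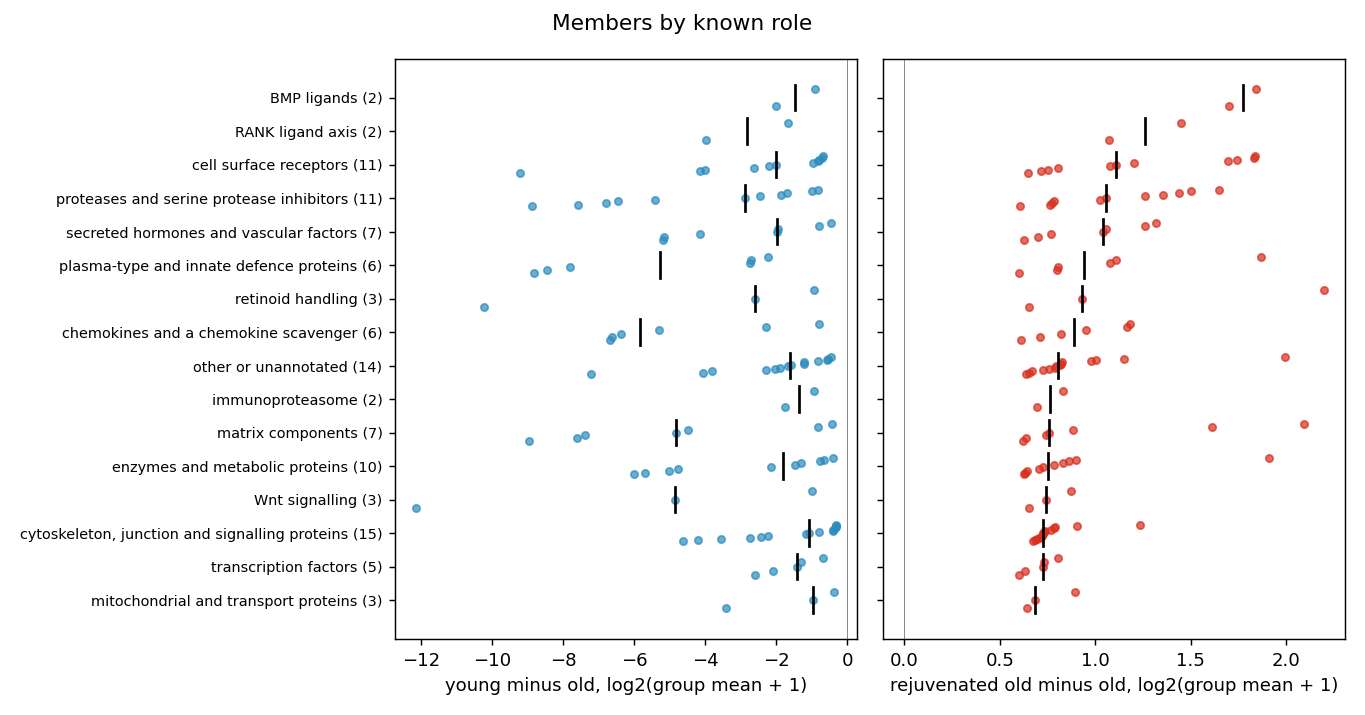
Differences of the 107 genes by known role, as log2(group mean + 1), for young minus old (left, blue) and rejuvenated old minus old (right, red); points are genes, black bars are medians, and the number of genes is in parentheses. Medians on the right run from 0.69 for mitochondrial and transport proteins to 1.77 for BMP ligands, and on the left from -5.84 for chemokines to -0.95 for mitochondrial and transport proteins.

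In 11 of the 107 genes no young library held more than 3 reads, against 1.09% of all genes: Esm1, Gzmd, Avpr1a, Cxcl14, Pf4, Colec10, C130074G19Rik, Adamdec1, Fmo4, Cbln1 and Ccl12. Those with young levels close to old included Pdlim2, Crip1, Dennd2d, Slc17a9, Adcy1, Rtkn2 and Nhs, at -0.31 to -0.41. The ranges of 2 adjacent groups overlapped in 16 genes, among them Adgrd1, Nhs, Adcy1, Crip1, Rtkn2, Dlx4, Dennd2d, Rgs11, Slc17a9 and Sp140. Among the 14 genes with no known role used here, F730043M19Rik differed most, with 19.6, 23.96 and 27.8 in young MSCs, 17.1, 33.4 and 47.4 in old MSCs and 112, 130.05 and 164 after co-culture, and its young and old ranges overlapped.

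The rejuvenated old libraries did not lie at 1 level. Relative to the mean of old MSCs, the median over the 107 genes was 0.72, 0.76 and 0.77 in replicates 1, 2 and 3, and 0.93, 0.95 and 0.91 in replicates 4, 5 and 6, while the median over all 12203 genes ran from -0.0031 to 0.019. Replicate 4 was the highest rejuvenated old library for 40 of the 107 genes and for 15.9% of all genes, replicate 5 for 37 and 22.5%, and replicate 1 was the lowest for 46 and 18.9%. Every rejuvenated old library was above the mean of old for all 107 genes. The limit on the rejuvenated-minus-old difference made this likely from the start, and no share over all genes is given for comparison. The osteoblast marker sums divided the same libraries, at 84144, 94340 and 95843 in replicates 1 to 3 and 74591, 69720 and 67966 in replicates 4 to 6, and the labels name no batch. Spp1 made up most of these sums, with 62098 to 90406 in rejuvenated old MSCs. Replicate 1, which also stood apart for Thy1 and Cd34, was the library most often lowest. The part of these differences in the result was not tested. Bmp4 had at most 8353 in replicates 1 to 3 and at least 10159 in replicates 4 to 6, and all lay above the old libraries. Over the young libraries the median ran from -2.21 to -2.07. The spread between libraries of a group was larger than over all genes. The median SD on the log2 scale was 0.24 in young MSCs, 0.12 in old MSCs and 0.16 after co-culture, beside 0.08, 0.08 and 0.10. The 107 genes also had lower levels, with a median of 312 for the mean normalized count beside 914 over all 12203 genes. The part of level in the spread was not tested.

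**Figure D5:**
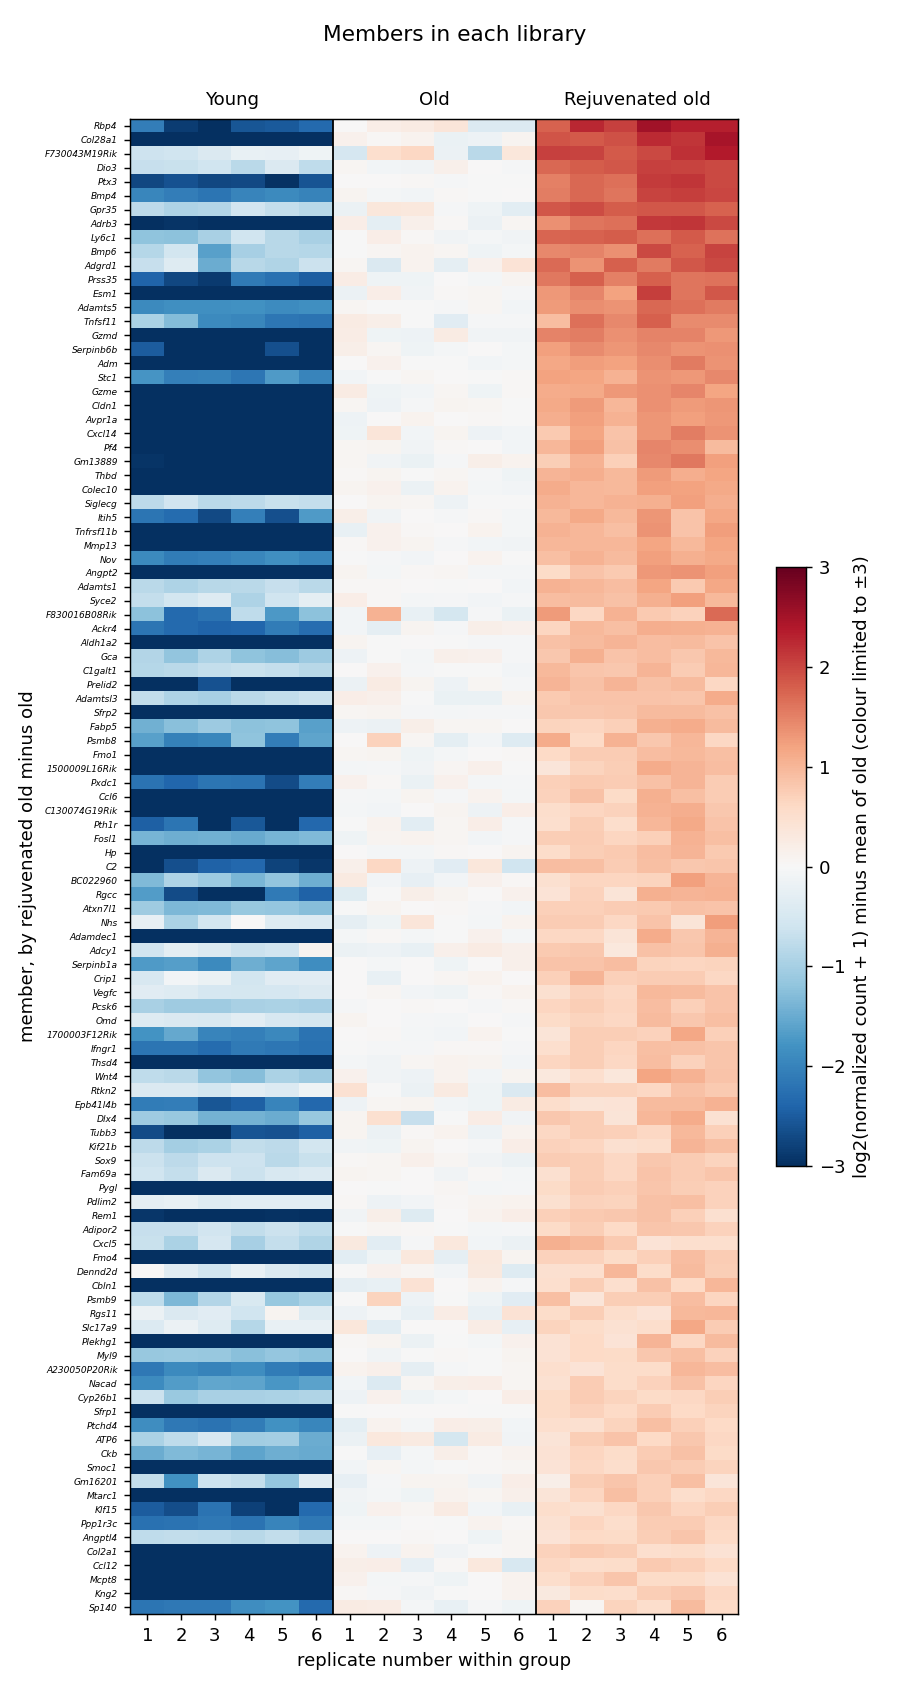
Level of the 107 genes (rows, by rejuvenated old minus old) in the 18 libraries (columns), as log2(normalized count + 1) minus the mean of old, with colour limited to ±3. Rejuvenated old libraries are red in nearly every row, most so in replicates 4 to 6, and young libraries are blue. The limits fix both directions for the group means.

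By position, the 107 genes were 0.877% of the 12203. Their share was 2.22% on chromosome 14 (9 genes), 1.69% on chromosome 12 (7) and 1.58% on chromosome 13 (7), and 0.271% on chromosome 4 and 0.258% on X. On chromosomes 1, 7, 12 and 16, whose levels differed as a whole between young and old MSCs, the share was 0.937%, against 0.863% elsewhere. That pooled share mixes opposite directions. It was 1.03%, 1.69% and 1.07% on chromosomes 1, 12 and 16, which were lower in young MSCs. On chromosome 7, which was higher in young MSCs, it was 0.455%. The part of these shifts in the choice of genes was not tested. Of 105 genes with a position, 27 (25.7%) lay within 500 kb of another, compared with 69 of 252 (27.4%) of the other genes higher by at least 0.6 in rejuvenated old MSCs. The neighbours included Tnfrsf11b, Colec10 and Nov on chromosome 15 (54250619 to 54753762) and C1galt1 and Col28a1 on chromosome 6 (7845224 to 8193709). Nov, a CCN family matrix protein, had 1786, 1963 and 2115 in young MSCs, 7231, 7564 and 8207 in old MSCs and 14252, 15802 and 17729 after co-culture. C1galt1, which starts mucin-type O-glycan extension, had 225, 238 and 253 in young MSCs, 384, 402 and 442 in old MSCs and 690.1, 759 and 819 after co-culture.

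In the RefSeq promoter windows, which were found for 70 of the 107 genes and held 85 start sites, the observed-over-expected CpG ratio had a median of 0.538. It was 0.563 for the other genes raised by co-culture, 0.759 for all genes with a mean of at least 50 and 0.384 for all promoters. The TATA box TATAAA was found on either strand in 15.3% of the windows, 13.1% for the other raised genes, 7.12% for all genes with a mean of at least 50 and 13.6% for all promoters. The hypoxia response core ACGTG was in 20.0% of the windows against 27.9%, 25.3% and 19.6% in the same sets, and the form GCGTG in 49.4% against 37.99%, 50.7% and 32.4%. The letters CCAAT were in 24.7% against 37.99%, 37.8% and 37.4%. Genes of one family or cluster share sequence, and no test was made of these shares.

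Of the 107 genes, 27 (25.2%) were on at least 1 of the 26 pathway lists, compared with 5.88% of the 12203 genes, and the lists were written with earlier results known. Unless stated otherwise, the counts called on a list include its members, whose directions the limits fix. Lists on which the members were absent included several with many genes called. The ATF4 response list had 27 of 32 genes called higher and 1 lower in rejuvenated old MSCs and 29 called higher in young MSCs, with medians of 0.44 and 1.69. Replication and mitosis genes, with 13 of 30 called higher, and ribosome biogenesis genes, with 16 of 22 and 1, also had no member. Cholesterol synthesis genes, with 1 called higher and 17 lower of 23, had none either.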

How the data were processed

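The 18 libraries, 6 per group, were made from mouse MSC RNA after poly-A selection with a stranded kit. According to the study and the processing notes, the authors aligned reads to mm10 with HISAT2, used StringTie and featureCounts, and normalized with DESeq2. Versions and the strand setting of the counting are not given in the sources used here. The deposited signal values are the reads of a gene divided by 1 size factor per library, and 100% of them came out as whole reads within 0.01 of a read.

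The members and gene lists were chosen with earlier results of these data known. Lists were tested with limma 3.58.1 (R 4.3.3) on log2(value + 1), with 3 group means and a trended prior variance, over 14353 genes with a mean of at least 10, at a Benjamini-Hochberg adjusted p under 0.05. edgeR 4.0.16 and DESeq2 1.42.0 on the recovered reads were alternatives. The floor of a group was set at 3 reads per library, which covers counting error only. Named members are the 12 with the largest smaller difference, the 8 with the largest difference between rejuvenated old and old MSCs, the 6 with the largest mean, up to 4 per list, and those beside each limit. Genes with predicted names were passed over. Other members were named after their values were seen. Positions and promoters are from RefSeq on GRCm38.p6, matched by gene number for 25275 of 27179 genes and by symbol for promoters. The scripts were tested on simulated data.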

Additional observations from a re-analysis of the deposited data

Results flagged for a closer look

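In 126 groups of 6 libraries, 123 of them a named member in 1 group and 3 the median over members, 8 held a library far from the others, where chance gives about 1 in 20. Old replicate 2 stood apart for both immunoproteasome genes, with 2131 normalized counts of Psmb8 (the other old libraries 1011 to 1362) and 631 of Psmb9 (314 to 397). Young replicate 6 had 46.3 of Sfrp1, against 2.18 to 7.82 in the other young libraries. Angptl4 was at 1613 in old replicate 5, below 1752 to 1820 in the others, and Col2a1 at 10.9 in young replicate 1, above 6.70 to 7.97. In 3 genes a single young library held reads where the other 5 stood at 0: Esm1 with 2.23 in replicate 3, Gzmd with 1.01 in replicate 4 and Cxcl14 with 1.03 in replicate 6.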

How the results depend on the processing

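The number of genes that met the limits was 107. It was 98 to 110 when 1 library was left out, and 86 of the 107 genes met the limits in every such fit, with Sp140, Kng2 and Gm16201 lost most often. The limits themselves set the size: 173 genes with a mean of at least 10, 66 with one of at least 200, 244 with differences of 0.4 and -0.2, and 34 with 1.0 and -0.5. Of 5350 values of members under other pseudocounts, scalings, averages or libraries, 0 changed sign. The limits hold every member away from 0, so a change of sign was unlikely from the start. In 94 the value moved by at least the SD of the gene between the libraries of the group compared with old. With rejuvenated old replicates 4, 5 and 6 alone, a choice made after seeing the data, 133 genes met the limits, 98 of them among the 107, and without chromosomes 1, 7, 12 and 16, also chosen later, 85 did. Between rejuvenated old and old MSCs limma called 5971 genes and the alternatives 5442 to 6345. All other counts over all genes and over the lists together stayed within 1.5 times. Single lists moved by more with some settings, among them interferon genes called higher (3 to 11), p53 targets called higher (1 to 3), collagens called higher (2 to 4) and respiratory chain genes called lower (3 to 6) in rejuvenated old MSCs, and Wnt (8 to 17) and cholesterol genes (2 to 4) called higher in young MSCs. The cause was not tested. With the replicate number as a block limma called 5769, but same-numbered libraries did not deviate together (correlations of -0.15 to 0.07), so the numbers were not taken as pairs. Depth limits young levels near 0, where 1 read decides a value.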

Other observations

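Members not described above included secreted and matrix proteins whose young level was close to 0. Thsd4, an ADAMTS-like protein of fibrillin microfibrils, had 23.5, 48.5 and 49.03 in young MSCs, 919, 997 and 1064 in old MSCs and 1523, 1633 and 1885 after co-culture. Cbln1, a secreted organiser of synapses, had 0, 1.06 and 2.18 in young MSCs, 59.1, 71.5 and 96.95 in old MSCs and 103, 115 and 145 after co-culture. Itih5, a hyaluronan-binding inhibitor heavy chain, had 11.2, 15.6 and 23.7 in young MSCs, 72.9, 78.03 and 88.2 in old MSCs and 143, 164 and 199 after co-culture. All 3 kept the order of young, old and rejuvenated old MSCs in every library, an order the limits fix for the group means. Adamtsl3, a relative of Thsd4, kept more of its level in young MSCs, with 125, 145 and 159.6 in young MSCs, 216, 255 and 286 in old MSCs and 428, 454 and 545 after co-culture.

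Intracellular members included Tubb3, a tubulin best known from neurons, with 23.5, 32.3 and 37.1 in young MSCs, 183, 215 and 224 in old MSCs and 317, 341 and 408 after co-culture. Ckb, the brain-type creatine kinase, had 1659, 1794 and 1999 in young MSCs, 4199, 5050.4 and 5590.04 in old MSCs and 6685, 7631 and 9233 after co-culture. Rgcc, a cell cycle regulator induced by complement, had 8.10, 13.2 and 25.03 in young MSCs, 63.4, 84.8 and 92.6 in old MSCs and 108, 151 and 173 after co-culture. In these genes the groups did not overlap either. ATP6, a mitochondrial gene, had 20.6, 29.6 and 42.5 in young MSCs, 40.9, 62.5 and 73.8 in old MSCs and 78.3, 95.8 and 108 after co-culture, and its old and young ranges overlapped.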
